A study of Mus musculus with 29 samples.

Results

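HDM201 blocks the binding of MDM2 to p53. MDM2 is the ubiquitin ligase that marks the tumour suppressor p53 for degradation, and its own gene is a p53 target, so freeing p53 from MDM2 is known to raise Mdm2 transcripts along with those of Cdkn1a, the p21 inhibitor of cyclin-dependent kinases, and Ccng1, cyclin G1. The liver is mostly hepatocytes by RNA mass. It also holds Kupffer cells, which are the resident macrophages, together with endothelial cells, stellate cells, bile duct cells and passing blood cells, and it makes most of the body's sterols, bile acids and acute phase proteins.

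The comparison asked which transcripts of aged female liver differ after HDM201 treatment. It took every gene of the deposited count table in 2 groups, 5 old females gavaged once a day over 14 days with HDM201 (10 mg/kg) and 4 old females that got the methylcellulose vehicle on the same schedule. These are 9 of the 27 mice with counts in the series, which also holds old males on both treatments and young vehicle mice of both sexes. All 9 were C57BL/6J mice with no engineered allele, 20 months old by their labels (the study's methods give a slightly higher age). Each sample was RNA from the whole liver of 1 mouse, taken in the morning. The comparison is therefore of tissue with all its cell types, and a lower transcript level from fewer cells of a type cannot be told apart from less transcript per cell.

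Gene counts summed to 17540037 to 23570458 reads in a liver. In each mouse 19.1% to 22.6% of these fell on its top 10 genes, and mitochondrial transcripts took 2.86% to 3.68%. Xist, which marks a second X chromosome, had 5184 to 7059 reads in every mouse, and the Y-linked Ddx3y had 0. On the first principal component of log2 CPM, which carried 28.6% of the variance, the vehicle mice lay on one side and the HDM201 mice on the other, with no overlap. Levels below are CPM, the reads of a gene scaled to a common library size with TMM factors over the 9 livers. A gene was called when its false discovery rate (FDR) was under 0.05 by edgeR's quasi-likelihood test with Benjamini-Hochberg adjustment, and fold changes are log2 of HDM201 over vehicle with their standard error (SE). The mice are separate animals, and n is 4 vehicle and 5 HDM201 mice throughout.

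Of 14445 genes tested, 758 (5.25%) were called. Higher levels with HDM201 were found for 339 (2.35%) and lower levels for 419 (2.9%), and at an unadjusted p under 0.05 there were 3247 genes. The median log2 fold change over all genes was 0.001. Rises were smaller than falls: the median was 0.46 among genes called higher and -0.78 among genes called lower, and 38 rises against 123 falls passed 1 on the log2 scale. The genes called lower were also the less abundant, with a median of 11.8 CPM in the vehicle group against 30.5 CPM for the genes called higher. Across all genes the CPM of the groups did not overlap in 9.81%, and among the called genes this held for 303 of those higher and 349 of those lower. The number of calls depended on single mice. It was 185 without vehicle mouse 2, 263 without vehicle mouse 4, 260 without HDM201 mouse 4 and 393 without HDM201 mouse 3. With vehicle mice 2 and 4 both left out, an alternative added after the data were seen, edgeR called 0 genes with 1774 at an unadjusted p under 0.05, and all 758 genes kept their direction. Kept direction says little here, since the genes were selected on these mice and the groups did not overlap for 652 of the 758.

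**Figure D1:**
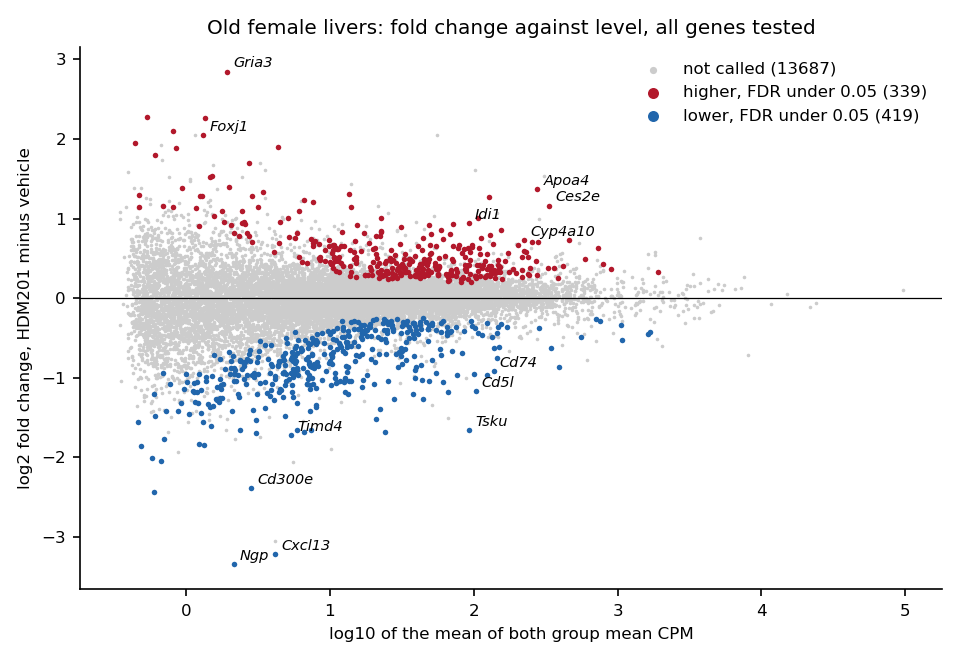
Log2 fold change (HDM201 minus vehicle) of each of the 14445 genes tested against the log10 of its mean CPM over the 2 groups, with genes called higher in red, genes called lower in blue and the rest in grey. Red points lie closer to 0 and further to the right than blue points, with medians of 0.46 and -0.78.

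Among the gene lists, which were chosen with earlier results of these data known, the cholesterol pathway had the most calls higher. In this pathway acetyl units are joined to HMG-CoA and mevalonate, then to isoprenoids, squalene and lanosterol, and finally to cholesterol, and its genes share the sterol-sensing activator SREBP-2 (gene Srebf2), which binds promoters together with the CCAAT-binding factor NF-Y. All 26 members of the list of sterol synthesis and uptake were measured. Of them 15 were called higher and 0 lower, all 26 had a log2 fold change above 0, and their median was 0.40 against 0.001 for all genes. The share called was 57.7%, against 5.25% of all genes. Their groups did not overlap in 17 of 26, against 9.81% of all genes. Because the sterol genes with a promoter in RefSeq nearly all carried CCAAT boxes, the bases just before the start are shown here for the 4 most significant that had an entry and carried a box.

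The following runs are the 200 bases before the RefSeq transcription start, 5′ to 3′ on the gene's strand in GRCm38.p6, with CCAAT or its reverse complement ATTGG in capitals and, in Hmgcs1, also a match to the sterol regulatory element TCACNCCAC. They lie at chr13:8885406-8885605 (plus strand, Idi1), chr8:64733579-64733778 (minus, Msmo1), chrX:72918321-72918520 (plus, Nsdhl) and chr13:119690151-119690350 (plus, Hmgcs1).
Idi1: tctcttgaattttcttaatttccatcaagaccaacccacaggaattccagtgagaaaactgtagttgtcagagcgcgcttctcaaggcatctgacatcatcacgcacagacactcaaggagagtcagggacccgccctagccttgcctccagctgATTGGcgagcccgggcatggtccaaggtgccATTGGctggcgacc
Msmo1: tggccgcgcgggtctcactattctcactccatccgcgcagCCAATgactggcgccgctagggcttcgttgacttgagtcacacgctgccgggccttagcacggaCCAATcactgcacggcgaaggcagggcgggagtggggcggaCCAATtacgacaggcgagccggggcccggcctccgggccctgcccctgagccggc
Nsdhl: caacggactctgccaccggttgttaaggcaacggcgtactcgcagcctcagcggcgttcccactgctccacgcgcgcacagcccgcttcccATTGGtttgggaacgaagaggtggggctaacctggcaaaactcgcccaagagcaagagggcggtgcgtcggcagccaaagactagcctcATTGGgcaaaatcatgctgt
Hmgcs1: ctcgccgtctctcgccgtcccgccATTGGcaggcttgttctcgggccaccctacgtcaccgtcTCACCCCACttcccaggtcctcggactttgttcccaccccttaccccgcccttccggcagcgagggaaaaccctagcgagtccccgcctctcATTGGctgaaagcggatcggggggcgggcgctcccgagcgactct

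Read on both strands over the 300-base windows of the RefSeq table, which run from 250 bases before the start to 50 after it, CCAAT stood in 16 of the 18 sterol genes with an entry (88.9%) and in 42.6% of the 10721 genes tested with an entry. The share was 41.5% among genes called higher and 40.6% among genes called lower. A high share was not particular to the sterol list. It was 87.5% (7 of 8) for erythroid genes, 84.6% for the integrated stress and unfolded protein response and 80.8% for the cell cycle. For acute phase proteins it was 4.76%. The letters TCACNCCAC occurred in 1 of the 18 sterol genes, Hmgcs1, in 1.52% of all tested genes, in 2.64% of those called higher and in 2.52% of those called lower. The plan had been to print sterol genes that hold these letters. Since only Hmgcs1 did, genes with a CCAAT box were printed, a choice made after the matches were seen. The matches describe letters in a window and were not tested.

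Hmgcs1, the HMG-CoA synthase that opens the sterol branch, stood at 393, 316, 346 and 320 CPM in the vehicle mice and at 574, 588, 572, 635 and 490 CPM in the HDM201 mice. Every HDM201 mouse was above every vehicle mouse, and the log2 fold change was 0.73 (SE 0.09, FDR 0.0056). Idi1, which isomerises the isoprenoid building block, had the largest rise of the list. Its levels were 65.2, 55.4, 75.3 and 56.6 CPM with vehicle and 109, 124, 133, 122 and 118 CPM with HDM201, a 1.92-fold difference (log2 0.94, SE 0.10, FDR 0.0024) without overlap. In the GENCODE annotation the gene lies at chr13:8885501-8892451 on the plus strand. That start is upstream of the RefSeq start used above, so the end of the printed run, with both boxes, lies inside the gene there.

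Fdft1, squalene synthase and so the first enzyme committed to sterols, ran from 151 to 171 CPM with vehicle and from 234 to 273 CPM with HDM201 (log2 0.67, SE 0.07, FDR 0.0024). The enzymes after squalene moved with it. Cyp51, the lanosterol demethylase, was at 170 to 221 CPM with vehicle and 295 to 359 CPM with HDM201 (log2 0.71, SE 0.10, FDR 0.0056). Msmo1, which removes the methyl groups at the next step, was at 85.2 to 136 CPM and then at 185 to 208 CPM (log2 0.86, SE 0.11), and Nsdhl, which acts beside it, rose by 0.63 (SE 0.08). Cyp51 and Msmo1 were named after their values were seen. Lss, which closes the sterol rings, Mvk and Mvd, which act on mevalonate, Fdps, Hsd17b7, Dhcr7, Stard4, Acat2 and Sqle made up the rest of the called members, with log2 fold changes from 0.35 to 0.68. Sqle, the squalene epoxidase, had the weakest call (FDR 0.047), and it passed in 0 of the 9 fits that left out 1 mouse.

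Srebf2 itself did not pass the test. It was at 117, 107, 122 and 115 CPM with vehicle and at 108, 116, 134, 133 and 112 CPM with HDM201 (log2 0.07, SE 0.08, FDR 0.67), with the groups overlapping. Summed over the 26 members the level was 5319 to 5868 CPM in the vehicle mice and 6536 to 7472 CPM in the HDM201 mice. The vehicle mice differed among themselves. Vehicle mice 2 and 4 both lay below mice 1 and 3 for 15 of the 26 (57.7%), against 16.6% of all genes tested. The list had 9 to 16 calls when 1 mouse was left out, with 9 without vehicle mouse 2, and its median stayed at 0.32 without vehicle mice 2 and 4, where it held 0 calls.

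**Figure D2:**
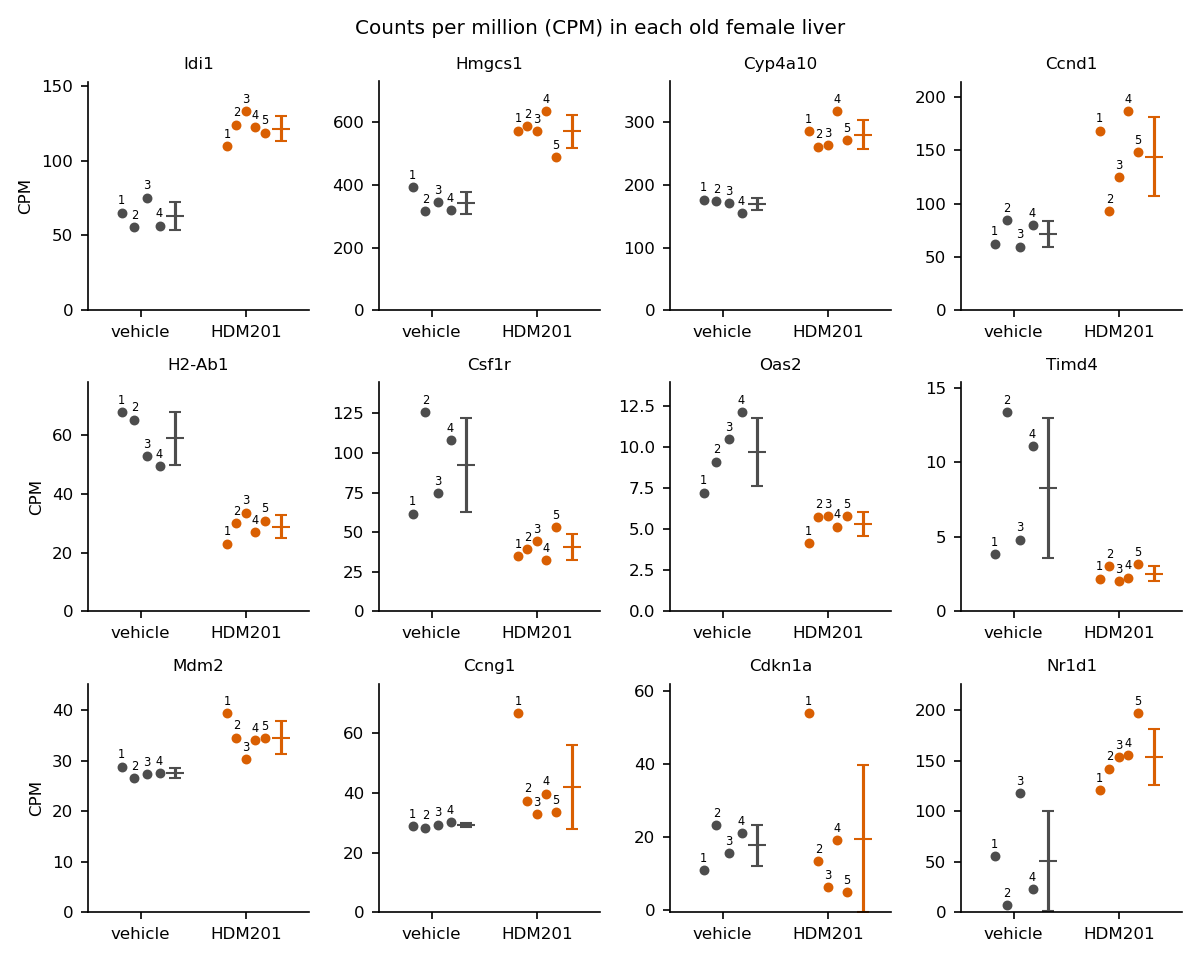
CPM of 12 genes in each old female liver, vehicle in grey and HDM201 in orange, with the mouse number above each point and the mean and SD as a bar at the right of each group. Idi1, Hmgcs1, Cyp4a10 and Ccnd1 were higher and H2-Ab1, Csf1r, Oas2 and Timd4 lower in every HDM201 mouse than in any vehicle mouse, whereas for Cdkn1a HDM201 mouse 1 alone stood above all vehicle mice.

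Fatty acid oxidation, which burns fatty acids in mitochondria and peroxisomes and makes ketone bodies, is driven in liver by the nuclear receptor PPARA. Of 35 tested members of its list 6 were called higher and 0 lower (17.1% called, against 5.25% of all genes), 28 lay above 0, and the median log2 fold change was 0.30. Cyp4a10, an omega-hydroxylase and PPARA target, was at 176, 174, 170 and 155 CPM with vehicle and at 286, 261, 263, 317 and 271 CPM with HDM201 (log2 0.73, SE 0.08, FDR 0.0024). The groups were far apart, although reads of Cyp4a10 can also belong to its close paralogs. Cpt1a, which carries fatty acids into mitochondria, rose from 190 to 243 CPM with vehicle to 249 to 427 CPM with HDM201 (log2 0.70, SE 0.14, FDR 0.020). Bdh1, which makes the ketone body 3-hydroxybutyrate, rose by 0.58 (SE 0.13, FDR 0.026) and Hadhb, a subunit of the trifunctional protein of beta oxidation, by 0.33 (SE 0.08, FDR 0.031). The hormone Fgf21, singled out after its values were seen, was at 2.30, 1.40, 2.01 and 1.71 CPM with vehicle and at 8.93, 1.51, 6.03, 13.8 and 4.02 CPM with HDM201 (log2 1.90, SE 0.50, FDR 0.049). HDM201 mouse 2 lay inside the vehicle range. Cyp4a14 and Cd36, other PPARA targets, did not pass, with log2 fold changes of 0.43 (FDR 0.32) and 0.27 (FDR 0.16). The calls of this list were 1 without vehicle mouse 2, 1 without HDM201 mouse 4, 2 without vehicle mouse 4, 3 without vehicle mouse 1, and 12 higher with 1 lower by DESeq2.

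In fatty acid synthesis 3 of 24 tested members were called higher and 0 lower (12.5% called, against 5.25% of all genes), and the median was -0.06. The 3 act on long polyunsaturated chains. The desaturase Fads2 was at 540, 573, 562 and 607 CPM with vehicle and at 914, 700, 844, 975 and 984 CPM with HDM201 (log2 0.63, SE 0.10, FDR 0.0096), the elongase Elovl2 rose by 0.50 (SE 0.09, FDR 0.011), and the desaturase Fads1 by 0.37 (SE 0.09, FDR 0.039). None of the 3 overlapped between groups. That adds little for called genes, since 303 of the 339 genes called higher did not overlap, against 9.81% of all genes tested. In contrast the fatty acid synthase Fasn (log2 -0.51, SE 0.21, FDR 0.17), the stearoyl desaturase Scd1 (-0.71, SE 0.40, FDR 0.32) and the activator Srebf1 (-0.45, SE 0.19, FDR 0.18) did not pass.

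In bile acid synthesis and transport 2 of 24 tested members were higher and 0 lower (8.33% called, against 5.25% of all genes), with a median of 0.04. The 2 were exporters at the bile canaliculus. Abcb4, which flips phosphatidylcholine into bile, was at 192 to 200 CPM in the vehicle mice and 249 to 330 CPM in the HDM201 mice (log2 0.52, SE 0.09, FDR 0.010). Abcg8, a subunit of the sterol exporter, was at 81.2, 78.3, 134 and 88.8 CPM with vehicle and at 127, 130, 184, 184 and 202 CPM with HDM201 (log2 0.79, SE 0.18, FDR 0.032), with vehicle mouse 3 inside the HDM201 range. Cyp7a1, the rate-limiting enzyme of bile acid synthesis, did not pass (log2 -0.12, SE 0.28, FDR 0.85), nor did Cyp8b1 (FDR 0.74).

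In drug and steroid metabolism 4 of 64 tested members were higher and 1 lower (7.81% called), with a median of 0.07. The sulfotransferases Sult1e1 (log2 2.27, SE 0.54, FDR 0.037), which inactivates estrogens, and Sult1b1 (0.58, SE 0.10, FDR 0.012) rose, as did Hsd3b3 (0.45, FDR 0.012) and Cyp2c39 (0.66, FDR 0.028). Sult1e1 was at 0.768, 0.465, 0.286 and 0.342 CPM with vehicle and 0.807, 0.897, 1.98, 3.08 and 4.41 CPM with HDM201, so that HDM201 mouse 1 lay next to vehicle mouse 1. Ces1d, a carboxylesterase, fell by 0.53 (SE 0.12, FDR 0.026). Cyp3a11 ranged from 457 to 1405 CPM with vehicle and from 359 to 1528 CPM with HDM201 and did not pass (FDR 0.93). Ces2e, another carboxylesterase and a gene of no list, was among the largest rises of abundant genes. Its levels were 211, 188, 222 and 208 CPM with vehicle and 615, 404, 413, 468 and 424 CPM with HDM201 (2.24-fold, log2 1.16, SE 0.12, FDR 0.0024). Reads of these carboxylesterases and sulfotransferases can belong to paralogs.

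Of the 29 tested genes of the growth hormone and insulin axis, edgeR called 0, with 5 at an unadjusted p under 0.05 and 1 called by DESeq2, and Igf1 had a log2 fold change of 0.04 (SE 0.07). NRF2 targets gave 0 calls of 24 (8 at an unadjusted p under 0.05, 3 by DESeq2), among them Nqo1 (log2 0.37, FDR 0.13) and Gclc (-0.19, FDR 0.47). Acute phase proteins gave 1 call of 26 (3.85%, against 5.25% of all genes). Orm2, an acid glycoprotein whose reads can belong to its paralogs, was at 20.6 to 35.3 CPM with vehicle and 8.82 to 19.0 CPM with HDM201 (log2 -1.07, SE 0.23, FDR 0.026), whereas Saa1 (FDR 0.78) and Lcn2 (FDR 0.59) did not pass. The hepatocyte identity list had 1 call of 32 (3.12%, also under the share of all genes). Hnf4a, a master regulator of hepatocyte genes, was at 731, 768, 797 and 784 CPM with vehicle and at 610, 656, 642, 640 and 656 CPM with HDM201 (log2 -0.27, SE 0.06, FDR 0.032). Albumin (Alb, log2 0.10, SE 0.13) and the pericentral Glul (-0.02, SE 0.13) did not pass.

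Of the 419 genes called lower 88 were in one of the lists, and the list with the most of them was that of macrophages and monocytes. Of its 76 tested genes 44 were called lower and 0 higher, 71 lay below 0, and the median log2 fold change was -0.88. The share called was 57.9%, against 5.25% of all genes. The groups did not overlap for 39 of the 76, against 9.81% of all genes. Among 19 tested Kupffer cell genes 9 were lower and 0 higher (47.4% called), with a median of -0.79. The most secure calls were of surface and signalling genes shared by leukocytes. Ptprc, which encodes CD45, was at 14.2, 21.9, 15.6 and 22.8 CPM with vehicle and at 7.69, 7.29, 8.27, 7.46 and 9.88 CPM with HDM201 (log2 -1.20, SE 0.15, FDR 0.0056). Cd52 (-1.09, SE 0.13, FDR 0.0042), the NADPH oxidase subunit Ncf4 (-1.28, SE 0.16, FDR 0.0056) and Ly86 (-1.31, SE 0.19, FDR 0.0071) showed the same separation of groups. Spi1, which encodes the myeloid factor PU.1 and was singled out after its values were seen, was at 10.1 to 18.6 CPM with vehicle and 6.11 to 8.44 CPM with HDM201 (log2 -1.05, SE 0.17, FDR 0.0099).

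Csf1r, the receptor on which macrophage survival depends, was at 61.8, 126, 74.7 and 108 CPM with vehicle and at 34.7, 39.4, 44.3, 32.5 and 53 CPM with HDM201 (log2 -1.18, SE 0.20, FDR 0.010). Its highest values were those of vehicle mice 2 and 4. The Kupffer cell genes Clec4f, a lectin, and Cd5l, a scavenger protein, fell by 0.96 (SE 0.16, FDR 0.0099) and 1.16 (SE 0.20, FDR 0.011), and the complement subunit C1qa fell by 1.05 (SE 0.18, FDR 0.010). Timd4, a phosphatidylserine receptor of resident Kupffer cells, was at 3.84, 13.3, 4.81 and 11.1 CPM with vehicle and at 2.21, 3.03, 2.02, 2.25 and 3.15 CPM with HDM201 (log2 -1.72, SE 0.34, FDR 0.018). Adgre1, which encodes the F4/80 antigen, fell by 1.11 (SE 0.27, FDR 0.037), and Vsig4 and C6 were also lower. Another call of the Kupffer list, Cdh5, is an endothelial cadherin. Cx3cr1, a chemokine receptor of monocytes, did not pass (log2 0.14, SE 0.22, FDR 0.75).

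The vehicle mice also differed among themselves in these genes. Vehicle mice 2 and 4 both lay above mice 1 and 3 for 59 of the 76 macrophage genes (77.6%) and for 16 of the 19 Kupffer genes, against 17.9% of all genes tested. The same held for 51.8% of all genes called lower. Among genes called higher, these 2 mice both lay below mice 1 and 3 for 32.7%, against 16.6% of all genes. Summed over the macrophage list the vehicle mice were at 1992, 2789, 2252 and 2760 CPM and the HDM201 mice at 1871, 1659, 1700, 1562 and 1911 CPM, so that vehicle mice 1 and 3 also lay above every HDM201 mouse. The Kupffer sum was 860, 1371, 1017 and 1291 CPM with vehicle and 759 to 888 CPM with HDM201, and there vehicle mouse 1 lay inside the HDM201 range. Without vehicle mice 2 and 4 the medians were -0.51 for the macrophage list and -0.37 for the Kupffer list, with 0 calls in both. Leaving out 1 mouse gave 18 to 49 macrophage calls, with 18 without vehicle mouse 2, 20 without vehicle mouse 4, 21 without HDM201 mouse 4 and 28 without HDM201 mouse 2 or 3, and 3 to 12 Kupffer calls, with 3 without vehicle mouse 2, vehicle mouse 4 or HDM201 mouse 4, 5 without HDM201 mouse 2 or 3 and 6 without HDM201 mouse 1.

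**Figure D3:**
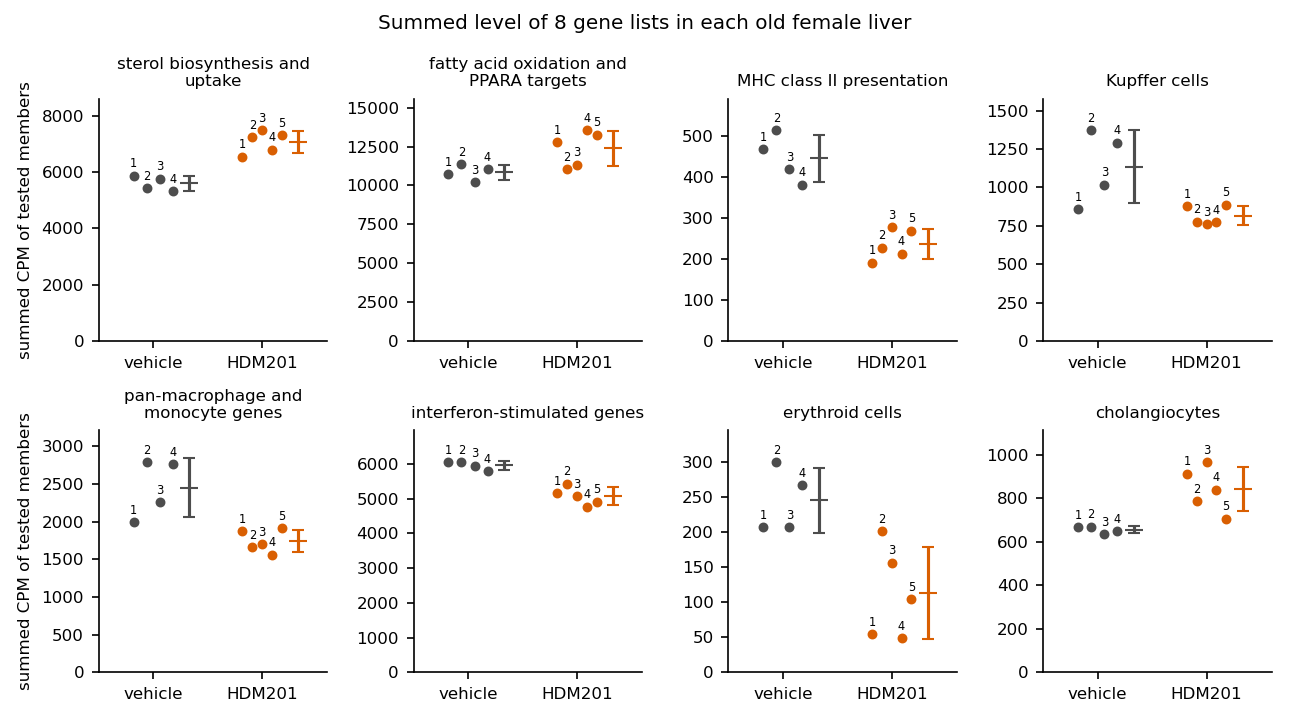
Summed CPM of the tested members of 8 gene lists in each old female liver, vehicle in grey and HDM201 in orange, with the mouse number above each point and the mean and SD as a bar. Sterol and cholangiocyte sums were higher and MHC class II, macrophage, interferon-stimulated and erythroid sums lower in every HDM201 mouse than in any vehicle mouse, and vehicle mice 2 and 4 were highest for Kupffer and macrophage genes.

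Among called genes without overlap between groups, several of the largest falls were of leukocyte genes. Cd300e, an activating receptor of monocytes, was at 1.43, 6.79, 2.40 and 8.46 CPM with vehicle and at 0.699, 1.12, 0.928, 0.828 and 1.02 CPM with HDM201 (log2 -2.38, SE 0.46, FDR 0.016). Adgre4 (-1.66, SE 0.30, FDR 0.012), the formyl peptide receptor Fpr2 (-1.84, SE 0.38, FDR 0.023) and the lymphoid transcription factor Pou2f2 (-1.69, SE 0.32, FDR 0.016) fell with the groups apart. Sirpb1a fell by 2.04 (SE 0.53, FDR 0.048), resting largely on vehicle mouse 4 at 2.44 CPM, and its reads can belong to paralogs. Without vehicle mice 2 and 4 the fold changes of Cd300e and Timd4 were -1.05 and -0.78. Falls outside the immune lists included Gm15622 (-2.43, SE 0.47, FDR 0.017), Prune2 (-1.77, SE 0.42, FDR 0.035) and Ephb6, a receptor of the ephrin family (-0.94, SE 0.12, FDR 0.0056). Tsku, a secreted hepatokine, was at 118, 197, 82.2 and 165 CPM with vehicle and at 56.2, 35.4, 44.9, 24.9 and 61.1 CPM with HDM201 (log2 -1.66, SE 0.27, FDR 0.0099), the largest fall among genes over 50 CPM. The linker histone gene Hist1h1c (-1.27, FDR 0.028) and the complement regulator Cfp (-1.20, FDR 0.020) overlapped between groups.

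MHC class II molecules display peptides to CD4+ T cells, and their genes share the coactivator encoded by Ciita. Of 12 tested members of this list 8 were lower and 0 higher (66.7% called, against 5.25% of all genes), all 12 lay below 0, and the median was -0.90. H2-Ab1 was at 67.6, 65.2, 52.8 and 49.4 CPM with vehicle and at 23.0, 29.9, 33.5, 27.0 and 30.8 CPM with HDM201 (log2 -1.03, SE 0.12, FDR 0.0042), and Cd74, the invariant chain, at 196, 207, 170 and 147 CPM and then 77.9, 94.2, 114, 81.3 and 110 CPM (log2 -0.92, SE 0.13, FDR 0.0069). Here vehicle mice 1 and 2 were the highest, not mice 2 and 4. H2-Eb1 (-1.003, SE 0.15), H2-Aa (-0.91, SE 0.16) and the peptide-processing protease Ctss (-0.84, SE 0.13) fell as well. Ciita fell from 3.91 to 6.31 CPM with vehicle to 1.67 to 3.33 CPM with HDM201 (log2 -1.05, SE 0.22, FDR 0.025). The list median was -0.94 without vehicle mice 2 and 4, and leaving out 1 mouse gave 5 to 9 calls, with 5 without vehicle mouse 2. Near-identical class II genes can share reads.

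The promoters of 2 class II genes are shown, those of lowest FDR among members with a RefSeq entry and a box. Showing them was not planned. Ctss stood between them in FDR (0.0099) and had no box in the 200 bases before its start. CCAAT stood in 7 of the 9 members with a RefSeq entry (77.8%), against 42.6% of all genes tested and 40.6% of those called lower. The runs are again the 200 bases before the start, at chr17:34305667-34305866 (plus strand, H2-Eb1) and chr17:34287824-34288023 (minus strand, H2-Aa), with each match to CCAAT or ATTGG in capitals, of which H2-Eb1 has 2 and H2-Aa 1.
H2-Eb1: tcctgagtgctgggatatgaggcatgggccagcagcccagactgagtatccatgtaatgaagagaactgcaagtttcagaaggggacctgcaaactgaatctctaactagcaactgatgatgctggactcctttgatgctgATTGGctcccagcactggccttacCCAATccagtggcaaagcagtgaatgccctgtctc
H2-Aa: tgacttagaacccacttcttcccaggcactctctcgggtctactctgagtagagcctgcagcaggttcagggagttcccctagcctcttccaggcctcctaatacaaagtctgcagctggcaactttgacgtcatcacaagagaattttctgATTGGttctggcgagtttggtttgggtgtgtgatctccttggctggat

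Interferon-stimulated genes encode the antiviral state. Of 62 tested members 14 were lower and 0 higher (22.6% called, against 5.25% of all genes), 57 lay below 0, and the median was -0.33. Ifi27l2a was at 5.92, 7.17, 6.53 and 7.04 CPM with vehicle and at 4.03, 2.80, 4.09, 2.48 and 2.71 CPM with HDM201 (log2 -1.04, SE 0.17, FDR 0.0099). Oas2, an oligoadenylate synthetase, fell by 0.87 (SE 0.16, FDR 0.012), the signalling factor Stat2 by 0.37 (SE 0.06, FDR 0.011) and the myeloid factor Irf8 by 0.64 (SE 0.13, FDR 0.019), each without overlap. The classical reporters Isg15 (-0.33, FDR 0.11) and Irf7 (-0.39, FDR 0.054) lay below 0 and did not pass. The list gave 3 to 17 calls lower when 1 mouse was left out: 3 without vehicle mouse 4 or HDM201 mouse 4, 4 without vehicle mouse 2, 6 without HDM201 mouse 3 and 7 without vehicle mouse 1.

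Markers of other leukocytes leaned the same way with few calls. B and plasma cell genes had 2 calls lower of 23 (8.7%, against 5.25% of all genes) and a median of -0.78. The B cell receptor subunit Cd79b was at 3.46, 3.58, 4.12 and 3.03 CPM with vehicle and 1.94, 1.34, 1.98, 1.43 and 1.65 CPM with HDM201 (log2 -1.08, SE 0.17, FDR 0.0099), and Bank1 fell by 0.79 (SE 0.18, FDR 0.032), while the immunoglobulin transcripts Ighm (FDR 0.51) and Igkc (FDR 0.43) did not pass. Of 28 T and NK cell genes edgeR called 0, with 12 at an unadjusted p under 0.05, 3 called by DESeq2 and 26 below 0, for a median of -0.54. Cd3e, part of the T cell receptor complex, had a log2 fold change of -0.18 (SE 0.33). Dendritic cell genes had 2 calls lower of 19 (10.5%), the factor Batf3 (-1.32, SE 0.30) and Bst2 (-0.36, SE 0.09), and a median of -0.36. Of 8 neutrophil genes only Ngp was called, a share of 12.5% (-3.35, SE 0.80, FDR 0.037), at 0.658, 5.07, 0.401 and 9.48 CPM with vehicle and 0.169 to 0.560 CPM with HDM201. Vehicle mice 1 and 3 lay at or next to the HDM201 range, and the same mice 2 and 4 held the highest S100a8 and S100a9 levels.

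Erythroid transcripts had the lowest median of all lists, -1.17, with 1 call of 9 (11.1%, against 5.25% of all genes), the transferrin receptor Tfrc (-0.44, SE 0.07, FDR 0.010). The globin Hbb-bs was at 81.7, 123, 80.3 and 108 CPM with vehicle and at 5.59, 77.6, 52.9, 7.23 and 30.4 CPM with HDM201 (log2 -1.50, SE 0.59, FDR 0.15). Its groups did not overlap, and HDM201 mice 1 and 4 were lowest. Summed over the macrophage list HDM201 mice 1 and 4, lowest in globin, stood at 1871 and 1562 CPM, the second highest and the lowest of the HDM201 group. Vehicle mice 2 and 4 were highest of all mice in both the erythroid sum (301 and 267 CPM) and the macrophage sum (2789 and 2760 CPM). Globin transcripts come from red cells, and the part of blood content in the falls of leukocyte genes was not tested.

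Among structural cells, bile duct genes leaned up. All 19 tested cholangiocyte genes lay above 0, 2 were called higher (10.5%, against 5.25% of all genes), and the median was 0.50, with summed levels of 634 to 670 CPM with vehicle and 707 to 967 CPM with HDM201. Epcam, an adhesion molecule of bile duct cells, was at 4.06, 3.02, 2.46 and 2.74 CPM with vehicle and at 5.32, 4.60, 8.27, 6.30 and 5.33 CPM with HDM201 (log2 0.96, SE 0.20, FDR 0.023). Spp1, osteopontin, rose by 0.93 (SE 0.16, FDR 0.010), from 41.8 to 57.6 CPM up to 70.2 to 126 CPM. HDM201 mouse 3 was highest for 63.2% of the list. Krt19 (FDR 0.23) and Sox9 (FDR 0.52) did not pass, and without vehicle mouse 2, vehicle mouse 4 or HDM201 mouse 4 only 1 call was left, against 4 without HDM201 mouse 5. Endothelial genes had 1 call lower of 31 (3.23%, against 5.25% of all genes), Cdh5 (-0.55, SE 0.14, FDR 0.046), and a median of -0.17. The sinusoidal genes Stab2 (FDR 0.28) and Clec4g (FDR 0.43) did not pass. Matrix and stellate cell genes gave 0 calls of 37 with edgeR (4 at an unadjusted p under 0.05, 1 by DESeq2), with Col1a1 at 0.28 (SE 0.21, FDR 0.46). Markers of tissues that can be cut along with the liver gave 0 calls, of 2 tested for pancreas (1 at an unadjusted p under 0.05) and of 7 for adipose tissue (2 at an unadjusted p under 0.05), and DESeq2 called none of either.

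**Figure D4:**
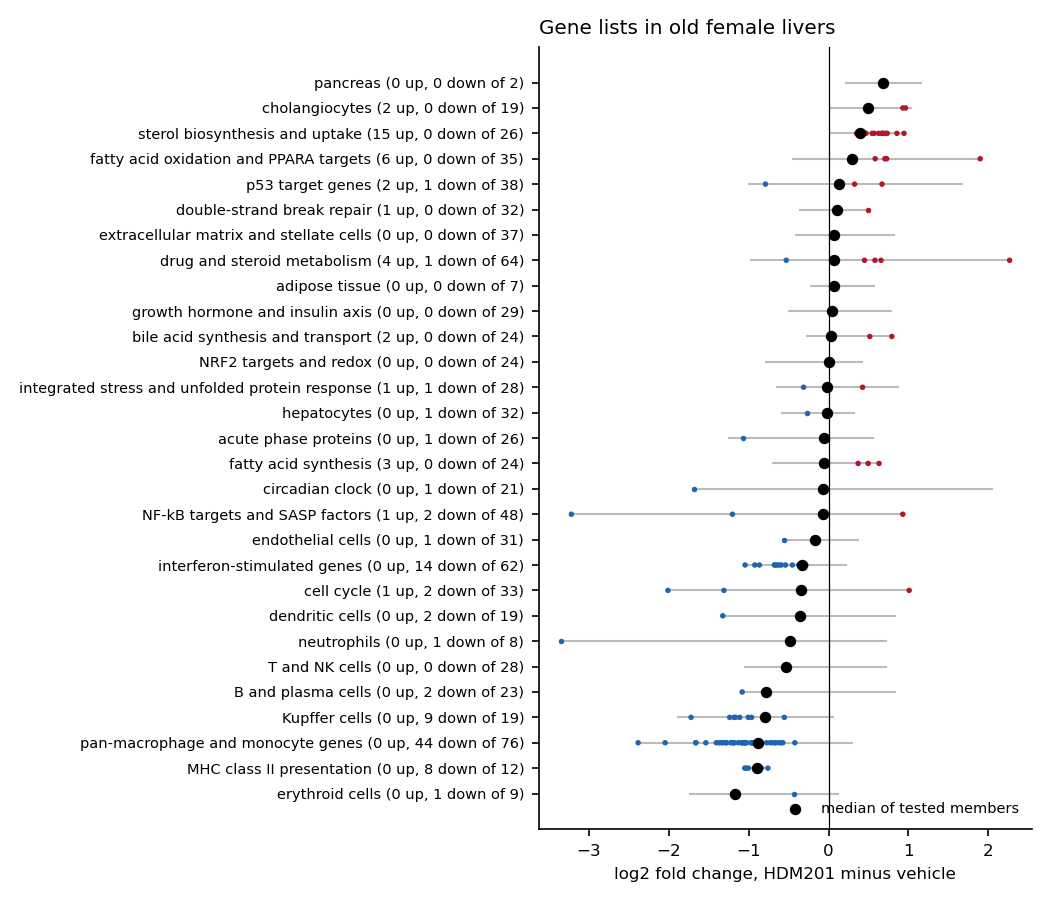
Log2 fold change of the 29 gene lists in old female livers, with the median of the tested members as a black point, their range as a grey line and the called members in red (higher) or blue (lower), and the counts of calls beside each name. Sterol genes have 15 calls higher and 0 lower, and macrophage and monocyte genes 44 lower and 0 higher.

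Of 38 p53 target genes tested 2 were called higher and 1 lower, which is 7.89% against 5.25% of all genes, with a median of 0.13 against 0.001. The median was 0.05 without HDM201 mouse 1. There were 0 calls without vehicle mouse 2 or HDM201 mouse 4, 1 call without vehicle mouse 1 or 4, and 4 higher and 4 lower by DESeq2. Mdm2 was at 28.8, 26.5, 27.3 and 27.5 CPM with vehicle and at 39.3, 34.5, 30.3, 34.0 and 34.4 CPM with HDM201, so that every HDM201 mouse lay above every vehicle mouse (1.25-fold, log2 0.33, SE 0.08, FDR 0.035). The call held in 2 of the 9 fits that left out 1 mouse. Enc1, an actin-binding protein, rose by 0.67 (SE 0.14, FDR 0.020), and Ddit4, an inhibitor of mTORC1, fell by 0.79 (SE 0.17, FDR 0.026). Ccng1 was at 28.9, 28.3, 29.3 and 30.2 CPM with vehicle and at 66.5, 37.3, 32.8, 39.6 and 33.6 CPM with HDM201, without overlap and without a call (log2 0.52, SE 0.18, FDR 0.11). Cdkn1a was at 11.0, 23.3, 15.5 and 21.1 CPM with vehicle and at 53.9, 13.3, 6.24, 19.1 and 4.89 CPM with HDM201 (log2 0.12, SE 0.57, FDR 0.93), and the log2 fold change was -0.71 without HDM201 mouse 1 and -0.05 without vehicle mouse 1. HDM201 mouse 1 was the highest of all 9 mice for 55.3% of the 38 targets, against 14.2% of all genes tested. Trp53, the p53 gene, had a log2 fold change of 0.10 (SE 0.08).

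The cell cycle list gave 1 call higher and 2 lower of 33 (9.09% called, against 5.25% of all genes), with a median of -0.34. Ccnd1, cyclin D1, which drives entry into the cycle, was at 62.5, 84.4, 59.9 and 79.8 CPM with vehicle and at 168, 92.8, 125, 187 and 149 CPM with HDM201 (2.01-fold, log2 1.01, SE 0.18, FDR 0.012). Genes of later phases went the other way at low levels, with Top2a, the topoisomerase of dividing cells, at 1.37 to 2.00 CPM with vehicle and 0.323 to 1.16 CPM with HDM201 (log2 -1.31, SE 0.34, FDR 0.049), and Ube2c at -2.01 (SE 0.43, FDR 0.025). Mki67 did not pass (-0.68, SE 0.28, FDR 0.17). In double-strand break repair 1 of 32 was called (3.12%, against 5.25% of all genes): Nbn, a subunit of the MRN complex that senses breaks. It was at 13.3, 13.3, 11.1 and 11.4 CPM with vehicle and at 17.7, 17.7, 16.3, 18.3 and 16.4 CPM with HDM201 (log2 0.49, SE 0.08, FDR 0.0099). Trp53bp1, which encodes 53BP1, had a log2 fold change of -0.06 (SE 0.10) and Atm 0.14 (SE 0.18).

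Of 48 genes of NF-kB signalling and the senescence-associated secretory phenotype (SASP) 1 was higher, Spp1, and 2 were lower, with a median of -0.07. The share called was 6.25%, near the 5.25% of all genes. The chemokine Cxcl13 was at 0.658, 18.01, 1.83 and 9.44 CPM with vehicle and at 1.18, 1.06, 0.717, 0.368 and 0.775 CPM with HDM201 (log2 -3.22, SE 0.76, FDR 0.034), with vehicle mice 2 and 4 the highest (-0.61 without them). The cytokine Il1b fell by 1.20 (SE 0.31, FDR 0.047) with overlap, and its log2 fold change was -0.61 without the same mice. No gene of the list was called lower without vehicle mouse 2 or 4 or HDM201 mouse 2, 3, 4 or 5, which left 0 calls lower in 6 of 9 fits. Cdkn2a, the senescence marker that encodes p16, was at 0.987, 1.21, 0.916 and 2.20 CPM with vehicle and at 0.860, 0.673, 0.338, 0.276 and 0.630 CPM with HDM201, without overlap and without a call (log2 -1.29, SE 0.37, FDR 0.068). Ccl2 did not pass (0.56, FDR 0.38). Genes of the integrated stress and unfolded protein response gave Calr higher (0.43, SE 0.11, FDR 0.047) and Dnajb9 lower (-0.31, SE 0.08, FDR 0.038) of 28 (7.14% called), with Hspa5 (-0.35, FDR 0.22) and Atf4 (0.09, FDR 0.55) not passing.

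Clock genes cycle over the day in liver, and their levels differed widely within both groups although the mice were killed in the morning. Of 21 tested 1 was called (4.76%, against 5.25% of all genes). Cry1, a repressor of the loop, was at 30.6, 65.7, 16.6 and 35.6 CPM with vehicle and at 13.4, 20.2, 7.97, 8.97 and 7.85 CPM with HDM201 (log2 -1.68, SE 0.37, FDR 0.026), with vehicle mouse 3 inside the HDM201 range. Without vehicle mouse 3 there were 3 clock calls higher and 1 lower, and without vehicle mouse 2 or 4 or HDM201 mouse 3, 4 or 5 there were 0. Dbp, an output factor, ran from 4.47 to 64.1 CPM with vehicle and from 14.1 to 232 CPM with HDM201 (FDR 0.19). Nr1d1, which encodes REV-ERBα, was at 55.6, 6.89, 118 and 23.0 CPM with vehicle and at 121, 142, 154, 156 and 197 CPM with HDM201, without overlap and without a call (log2 1.605, SE 0.56, FDR 0.11). Their part in the differences of lipid genes was not tested.

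The largest rises lay outside most lists. Gria3, a glutamate receptor subunit on the X chromosome, was at 0.603, 0.372, 0.401 and 0.489 CPM with vehicle and at 9.36, 1.23, 3.12, 2.02 and 1.26 CPM with HDM201 (log2 2.85, SE 0.66, FDR 0.033), with HDM201 mouse 1 far above the rest. Foxj1, a factor of ciliated cells, rose by 2.04 (SE 0.29, FDR 0.0069) from 0.329 to 0.630 CPM up to 1.41 to 2.70 CPM. Slc13a5, the citrate transporter of hepatocytes, was at 1.92, 2.70, 1.72 and 1.52 CPM and then at 5.11, 3.53, 7.30, 4.00 and 4.84 CPM (log2 1.33, SE 0.24, FDR 0.013). The transcripts B930025P03Rik (2.10, SE 0.36) and Gm33699 (1.70, SE 0.35) and the actin bundler Pls1 (1.52, SE 0.36) also rose without overlap. Apoa4, an apolipoprotein, was at 123, 149, 141 and 202 CPM with vehicle and at 805, 264, 272, 380 and 274 CPM with HDM201 (log2 1.38, SE 0.32, FDR 0.033), and the arrestin-like Arrdc3 rose by 1.27 (SE 0.29, FDR 0.032) with overlap. The noncoding transcript 1810008I18Rik was among the most significant rises (log2 0.64, SE 0.07, FDR 0.0041), and its groups did not overlap.

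Old males received the same dose for the same time at 24 months, 5 with HDM201 and 4 with vehicle. The old females were 20 months old, so sex and age change together here and cannot be told apart. The interaction of sex and treatment, fitted over these 18 old mice, called 16 of 14974 genes (0.107%), 11 with a larger log2 fold change in females and 5 with a smaller one. Of the 758 genes called in females 9 were among them. The genes called higher in females had a median of 0.03 in males, where 190 of 339 lay above 0, and those called lower a median of 0.14, where 139 of 419 lay below 0. The male medians were -0.03 for the sterol list, 0.43 for MHC class II and 0.30 for macrophage genes, and 0 members of these 3 lists passed the interaction test of edgeR. Other lists had medians of the same sign in both sexes. In males these were -2.17 for erythroid, -0.26 for interferon-stimulated, 0.35 for cholangiocyte and 0.11 for p53 target genes. Male medians of the opposite sign were also found for Kupffer (0.06), fatty acid oxidation (-0.04), B and plasma cell (0.34) and T and NK cell genes (0.56). At an unadjusted p under 0.05 the interaction was found for 507 of the 758, against 2774 of all 14974 genes tested. The 758 were selected on the female difference, which is part of the interaction, so a raised share was built in. Cd37, a leukocyte tetraspanin in none of these lists, was called in females (log2 -1.01, SE 0.15, FDR 0.0085) and in the interaction (-1.43, SE 0.27, FDR 0.046), with 0.41 in males.

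The strongest interaction was that of Cish, an inhibitor of cytokine and growth hormone signalling. In females it was at 13.3 to 29.4 CPM with vehicle and 22.6 to 47.0 CPM with HDM201 and was not called (FDR 0.21), and in males at 48.3, 33.5, 27.8 and 24.9 CPM with vehicle and 7.73, 9.92, 9.99, 12.2 and 8.27 CPM with HDM201. The female minus male difference in log2 fold change was 2.36 (SE 0.35, FDR 0.040). Fnip1, a partner of folliculin in nutrient sensing, rose in females (0.47, FDR 0.031) and had -0.46 in males, a difference of 0.93 (SE 0.16, FDR 0.040). Rnf24 (1.46, SE 0.26, FDR 0.044) and Gramd3 (0.88, SE 0.15, FDR 0.040) had the same pattern, and Map4k2, a kinase, the opposite one, lower in females (-0.40, FDR 0.010) and at 0.17 in males. The count of 16 rests on single mice: it was 0 without vehicle female 1 or 2 or HDM201 male 1 or 5, with 2355 to 2475 genes at an unadjusted p under 0.05, and 314 without vehicle female 3. It was 29 to 288 without HDM201 female 1, vehicle male 2 or 3, or HDM201 male 2, 3 or 4, and 1 to 7 without each mouse not yet named except HDM201 female 2, where it was 16.

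**Figure D5:**
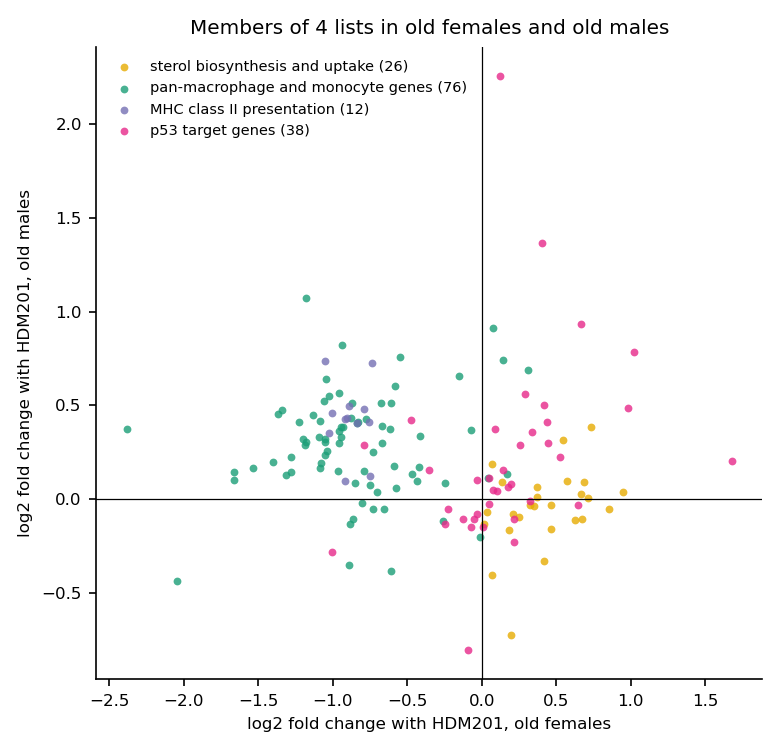
Log2 fold change with HDM201 in old females (horizontal axis) and old males (vertical axis) for the tested members of 4 lists, 1 point per gene. Sterol genes lie right of 0 with a male median of -0.03, and most macrophage and MHC class II genes lie left of 0 with male medians of 0.30 and 0.43.

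The levels of a few members were set beside those of 5 young vehicle females (C57BL/6N, 5 months), on a scale fitted over all 27 mice. Age and substrain change together in that group, and the old vehicle mice serve as the reference for both age and treatment, so the values are given without a test. H2-Ab1 was at 23.9 CPM ± 5.08 (SD, n = 5) in young females, 56.4 ± 8.58 (n = 4) in old vehicle and 28.1 ± 4.08 (n = 5) in old HDM201 females. Idi1 was at 125 ± 28.5, 60.6 ± 9.13 and 118 ± 8.99 CPM in the same order. For Ccnd1 the order differed, with 42.5 ± 14.8 CPM in young, 68.8 ± 11.5 in old vehicle and 140 ± 35.2 in old HDM201 females, and Mdm2 was at 29.5 ± 0.761, 26.4 ± 0.936 and 33.6 ± 2.97 CPM.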

How the data were processed

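Livers of old female mice were profiled by polyA RNA sequencing. Per the study's methods, the authors mapped reads with STAR to mm10 and counted reads per gene with HTSeq. Tool versions, annotation release and strand setting are not given in the sources used here, so overlapping and antisense genes are uncertain. The deposited values used are whole-number counts per gene. The FPKM table was not used. Of 29 labelled mice 27 had counts, all columns were matched to labels by name, and the 9 old females entered the comparison.

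Genes were kept by filterByExpr (minimum count 10, minimum total 15), scaled by TMM and tested with edgeR 4.0.16 in R 4.3.3 (quasi-likelihood F test, 2 groups, no covariate, Benjamini-Hochberg FDR under 0.05). The SE is the absolute log2 fold change divided by the square root of F. The sex by treatment interaction was fitted over the 18 old mice. The scripts were tested on simulated data. Alternatives were size factors of the RLE kind, DESeq2 1.42.0, no filter, a replicate block, all 6 groups in one fit, FDR under 0.01 and each mouse left out, and one was added after the data were seen. No batch is given in the sources used here.

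The comparison and the gene lists were chosen with earlier results of these data known. Genes named were, with a mean CPM of at least 1 in either group and no overlap, the 8 largest rises and falls; at 50 CPM or more, the 6 largest; the 5 lowest FDR each way; in each list up to 4 called members each way and its anchor genes; Mdm2, Cdkn1a, Trp53, Xist and Ddx3y; and 10 interaction genes. Others were chosen after their values were seen: Cyp51, Msmo1, Lss, Fgf21, Spi1, Adgre1, Cd37 and those under other observations. Some genes that this rule names are not reported here. Gene positions are those of GRCm38. Promoter sequences are from RefSeq (GRCm38.p6), in which 10721 of the tested genes had an entry.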

Additional observations from a re-analysis of the deposited data

Results flagged for a closer look

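Among 418 groups of values checked for a mouse far from the others of its group, 17 had one, and chance gives about 1 in 20. In 8 of them the mouse was HDM201 mouse 1. It was high for Gria3 (9.357 CPM against 1.23 to 3.12 in the other HDM201 mice), Apoa4 (805.2 CPM against 264 to 380), Ccng1 (66.52 against 32.8 to 39.6), Cish (46.95 against 22.6 to 27.1), Dnajb9 (49.37 against 44.0 to 45.5), Cd8a (1.775 against 0.338 to 0.630) and Mphosph10 (8.067 against 6.05 to 6.37), and low for Cyp4a14 (230.3 against 518 to 634). HDM201 mouse 2 was high for Scd1 (13570 CPM against 3473 to 5318) and for the bile acid list (7494 CPM summed against 6480 to 6722), and HDM201 mouse 5 for Cfp (31.29 against 18.9 to 22.4).

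In the vehicle group mouse 3 was high for Dbp (64.09 CPM against 4.47 to 10.3), Acta2 (4.238 against 1.65 to 1.96) and the 2 pancreas genes (7.56 CPM summed against 6.14 to 6.36), and low for Dnajb9 (48.22 against 59.3 to 60.3). Mouse 4 was high for Sirpb1a (2.445 against 0.548 to 0.744) and low for Lss (85.66 against 110 to 112).

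The response to HDM201 differed between old females (20 months) and old males (24 months) by the interaction of edgeR for 16 genes. Sex and age cannot be told apart in it. Values are female minus male log2 fold change at FDR 0.040 to 0.046. The value was positive for Cish (2.361), Rnf24 (1.456), Pdp2 (0.9335), Fnip1 (0.9256), Gramd3 (0.875), Coq10a (0.6894), Tspan12 (0.6293), Gnl3 (0.6202), Sepsecs (0.5841), Dennd4a (0.5692) and Ascc3 (0.5189). It was negative for Map4k2 (-0.5688), Caskin2 (-0.7228), Rcan1 (-0.8115), Cd37 (-1.43) and Nemp2 (-1.501).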

How the results depend on the processing

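The 758 calls (339 higher, 419 lower) kept their direction under each alternative that gave the gene a value, but their number did not hold. The genes were selected on the same mice and 652 had no overlap between groups, so their direction was largely fixed in advance. It was 1329 (646 and 683) with DESeq2, 208 (109 and 99) with all 6 groups in one fit, 110 (50 and 60) at FDR under 0.01 and 185 to 956 (91 to 452 and 94 to 504) with 1 mouse left out. Without vehicle mice 2 and 4, added after the data were seen, edgeR called 0 (0 and 0) with 1774 genes at an unadjusted p under 0.05. With all 6 groups in one fit the sterol list had 2 calls higher, and the macrophage, Kupffer, MHC class II and interferon lists had 17, 2, 1 and 1 lower. RLE size factors gave 751 and no filter 964. Of 112 named genes called, 19 were called under every alternative but the added one. The 16 interaction calls became 651 with DESeq2, 122 with no filter, 0 at FDR under 0.01 and 0 to 314 with 1 mouse left out. The cause of these changes was not tested.

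Replicate numbers did not pair the mice: the correlations of same-numbered mice were -0.01, 0.05, 0.06 and -0.09. With the replicate number as a block there were 366 calls (140 and 226), 294 of them among the 758, and 0 interaction calls (2043 genes at an unadjusted p under 0.05). With 4 and 5 mice the counts measure only the spread between these animals, and low genes such as Gria3 and Ngp rest on few reads.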

Other observations

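Some called genes of no list are given here as single genes, chosen after their values were seen, with no statement on any group. Hsph1, a partner of HSP70, was at 58.5, 72.6, 50.4 and 77.2 CPM in the vehicle mice and at 42.9, 36.4, 46.2, 27.7 and 36.4 CPM in the HDM201 mice (log2 -0.77, SE 0.15, FDR 0.018), without overlap. The call held in 7 of the 9 fits that left out 1 mouse. The chaperone genes Hsp90aa1 (log2 -0.61, FDR 0.034), Stip1 (-0.41, FDR 0.040), Dnaja1 (-0.36, FDR 0.038) and Hspa8 (-0.33, FDR 0.047) were called in 4, 2, 2 and 1 of those fits, and Hsp90aa1 had -0.32 without vehicle mice 2 and 4.

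Rrp12, a ribosome assembly factor, was at 9.65, 11.1, 6.99 and 12.2 CPM with vehicle and at 4.57, 3.19, 5.78, 4.33 and 4.75 CPM with HDM201 (log2 -1.14, SE 0.18, FDR 0.0099), and it was called in 9 of the 9 fits. Mphosph10 (log2 -0.55, FDR 0.026), Nat10 (-0.32, FDR 0.030), Utp18 (-0.40, FDR 0.040) and Nop56 (-0.28, FDR 0.037) were called in 4, 4, 2 and 2 of them. Gnl3, a nucleolar protein, had a log2 fold change of 0.27 (FDR 0.089) and did not pass.

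Atp6v0d2, a subunit of the lysosomal proton pump, was at 11.7, 8.65, 11.9 and 10.5 CPM with vehicle and at 24.1, 20.6, 23.0, 19.9 and 13.0 CPM with HDM201 (log2 0.91, SE 0.17, FDR 0.012), and it was called in 8 of the 9 fits. The pump subunits Atp6v1c1 (log2 0.39, FDR 0.011) and Atp6v1a (0.27, FDR 0.032) were called in 9 and 3 of them. Flcn, folliculin, had a log2 fold change of 0.66 (FDR 0.0495) with overlap and was called in 1 of the 9 fits, with 0.36 without vehicle mice 2 and 4. Rragd, a lysosomal GTPase, had 0.79 (FDR 0.049) and was called in 2.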
